A study of Mus musculus with 4 samples.

Results

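Translation initiation factor genes were measured by ribosome profiling, the sequencing of mRNA pieces that ribosomes protect, in the dorsal root ganglion (DRG) of the mouse, where the cell bodies of sensory neurons lie. The members were all rows whose symbol starts with Eif and a digit from 1 to 6, without the eIF2alpha kinases Eif2ak1 to Eif2ak4 and without pseudogenes named with "-ps". This gave 52 of 48431 rows, of which 51 are annotated as protein-coding. The remaining row, Eif2c5, is annotated as a long noncoding RNA and carries an older family name of the Argonaute genes, so it is a member by name alone.

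The 4 libraries form 1 group, ganglia of male wild-type (WT) SW mice given methylglyoxal (MGO), a reactive by-product of glycolysis, intraperitoneally at 2 mg/kg for 6 days. Another protocol text on the same samples names saline, which goes against that treatment label, and neither the animals' age nor the number of animals per library is given in the labels. No control libraries were analysed here, so genes were compared with each other within libraries and libraries with each other, and no effect of methylglyoxal was measured. Values are CPM, footprint reads per 1000000 reads of a library. Which of several genes is higher is read from CPM per kb of coding length, because a longer message holds more ribosomes. The tests ran on log2(CPM + 1), so differences on that scale are given too and named as such.

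Initiation factors bring the small ribosomal subunit, the initiator tRNA and the mRNA together and choose the start codon. eIF2 carries the initiator tRNA and is recharged with GTP by eIF2B, and eIF3 is the scaffold on the small subunit. The eIF4 factors recognise and unwind the capped end of the message, and eIF1, eIF1A and eIF5 set how strictly a start codon is accepted. In sensory neurons, signalling to the cap-binding factors and to eIF2 is known for its part in pain sensitisation.

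The libraries held between 2610537 and 3753015 reads, and 3 reads, the limit that a count of 0 allows, corresponded to 0.799 to 1.15 CPM (counting error only). Reads of replicate 1 were close to those of replicate 2, and reads of 3 to those of 4, with differences slightly above counting error (chi-square per degree of freedom 1.03 and 1.05, against 3.24 to 3.99 between libraries of different pairs). A pair is treated as a single sample in every mean ± SD, which is over the 2 pair means, whereas the sign-flip tests below ran over the 4 libraries. Sensory neuron markers were detected in 6 of 6 genes, with Tubb3 at 1786 ± 27.4 CPM, and satellite glia markers in 2 of 2. Muscle and blood markers were detected too (3 of 3 genes each, with sums of 1176 to 1732 and 339 to 424 CPM). Of the spinal cord list, 2 of 4 genes were detected (sums up to 29.8 CPM), with Slc1a2 at 21.0 to 27.0 CPM. Mog, an oligodendrocyte gene, stood at 1.52 to 2.93 CPM. The motor neuron gene Mnx1 and Olig2, another oligodendrocyte gene, had means under 1 CPM. The labels do not say whether the libraries came from separate animals, so the spread may be technical.

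Sequences around the annotated start codons are shown first, because the start codon is what these factors select. The messages shown include departures from the usual context, and how common these are is given after the lines. The lines give the 12 bases before the start codon, the codon in capitals and the 12 bases after it, from GENCODE M21 transcripts (GRCm38). Eif1 and Eif1b encode eIF1, which rejects start codons in weak contexts. Eif3b encodes an eIF3 subunit. Eif4g2 encodes a relative of eIF4G, also called DAP5, that lacks the cap-binding protein's docking region. Eif5 encodes the partner that triggers GTP hydrolysis on eIF2. Eif4a2 encodes an eIF4A helicase and was listed with more footprint reads than Eif4a1 in each library.
Eif1: gaatcgtatcgtATGtccgctatccag
Eif1b: cactagtgtcgcATGtccactatccag
Eif3b: cagcgcgggcccATGcaggacgctgag
Eif4g2: caagccgccaaaGTGgagagtgcgatt
Eif5: taataagccaaaATGtctgtcaacgtc
Eif4a2: ggttttcggatcATGtctggtggctcc
The favoured context has a purine as the third base before the start codon and a G right after it. Of the 48 detected members, 43 had the purine (89.6%), 24 had the G and 22 had both (45.8%), against 16720, 9793 (49.8%) and 8282 (42.1%) of 19673 protein-coding genes. Eif1, Eif1b and Eif3b had neither, a state found in 7.33% of protein-coding genes. Eif4g2 was the 1 member annotated with a GTG start codon, and 9 of all 19673 genes have an annotated start other than ATG. Where footprints lay along these messages is not in the table, so use of these starts was not measured.

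A footprint can be placed only where the sequence of a gene differs from that of its copies. The next lines show, for the paralogs compared below, the stretch of 60 coding bases in which each pair is most alike, with differing bases in capitals. Eif4a1 (chromosome 11, 69666936 to 69672423, minus strand, coding bases 532 to 591) stands beside Eif4a2 (chromosome 16, 23107444 to 23114136, plus strand, coding bases 535 to 594). Eif2s3x (chromosome X, 94188707 to 94212862, minus strand) and Eif2s3y (chromosome Y, 1010543 to 1028847, plus strand), both at coding bases 784 to 843, encode the gamma subunit of eIF2 on the sex chromosomes. Eif1 (chromosome 11, 100319885 to 100322096) and Eif1b (chromosome 9, 120492232 to 120495330), both on the plus strand, are shown from coding base 1 to 60.
Eif4a1: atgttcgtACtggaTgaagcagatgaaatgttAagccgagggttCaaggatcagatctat
Eif4a2: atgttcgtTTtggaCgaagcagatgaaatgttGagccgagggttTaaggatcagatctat
Eif2s3x: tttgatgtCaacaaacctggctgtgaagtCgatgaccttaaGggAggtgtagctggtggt
Eif2s3y: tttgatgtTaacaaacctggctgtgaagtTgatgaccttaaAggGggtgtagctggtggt
Eif1: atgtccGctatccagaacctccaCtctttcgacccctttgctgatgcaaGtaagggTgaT
Eif1b: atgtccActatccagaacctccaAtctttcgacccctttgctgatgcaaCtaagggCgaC
Over the whole coding sequence the identity was 78.6% for Eif4a1 and Eif4a2, 86.3% for Eif2s3x and Eif2s3y, and 81.1% for Eif1 and Eif1b. The longest identical runs were 20, 34 and 25 bases. At the shortest footprint selected, 28 bases, Eif4a1 and Eif4a2 shared no window, nor did Eif1 and Eif1b, while Eif2s3x and Eif2s3y shared 7 windows. These paralogs can thus be told apart by nearly any whole footprint.

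Copies outside the members overlapped far more. Of the windows of 28 coding bases of each detected member, the median share found on the same strand in a transcript of another gene was 2.85%. The share was under 1% in 17 members and above 50% in 11. Eif4a1 shared 99.4% of its windows, Eif1 99.0%, Eif2s3x 1320 of 1389 windows, Eif2s2 85.4% and Eif4e 80.4%. Most of the other genes were processed pseudogenes, copies of a message pasted back into the genome. By contrast, Eif4a2 shared 40.5%, Eif1b 2.24%, Eif2s3y 0.576% and Eif4g1 1.66%. The pseudogenes themselves held few reads: Eif4a-ps4, which holds 97.6% of the windows of Eif4a1, had 0, 0, 0.383 and 0.266 CPM in replicates 1 to 4. Gm2223, which holds those 1320 windows of Eif2s3x, had 0, 0, 0 and 0.266 CPM. How the authors placed reads with several matches is not given in the sources used here. A loss of such reads from members with shared windows, such as Eif4a1, Eif1, Eif2s3x, Eif2s2, Eif2s1 or Eif4e, was therefore not tested.

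**Figure D1:**
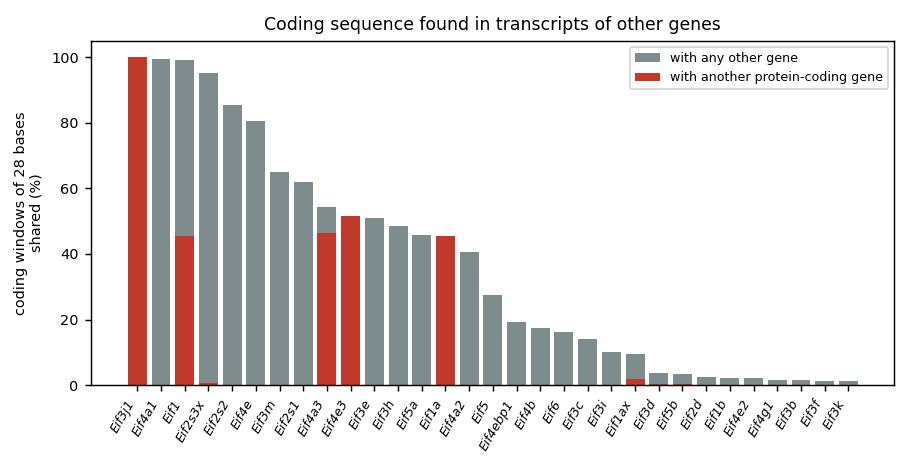
Share of each detected member's coding windows of 28 bases that also occurs in a transcript of another gene (y axis, percent; members at 1% or more are shown). Grey bars count any gene and red bars protein-coding genes alone; Eif3j1 stands at 100% and Eif4a1 at 99.4%.

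Initiation factor genes together took 0.348% of the reads, and 48 of the 52 members were detected at a mean of at least 1 CPM. The summed level was 3529, 3570, 3385 and 3426 CPM in replicates 1 to 4. eIF3 held 1342 ± 132 CPM of it, eIF4G 729 ± 20, eIF4A 382 ± 7.97 and eIF2 84.4 ± 0.361. Per kb of coding length, the median detected member stood at 34.5 CPM per kb, beside 11.4 for the 13825 detected protein-coding genes. The highest levels per kb were those of Eif1 (349 ± 36.2), Eif4a2 (226 ± 0.176), Eif5a (175 ± 4.86), Eif1b (160 ± 4.64) and Eif4h (152 ± 11.0). The lowest detected were Eif3j1 (5.97 ± 0.236), Eif2d (6.75 ± 0.712) and Eif4enif1 (7.13 ± 0.494 CPM per kb).

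**Figure D2:**
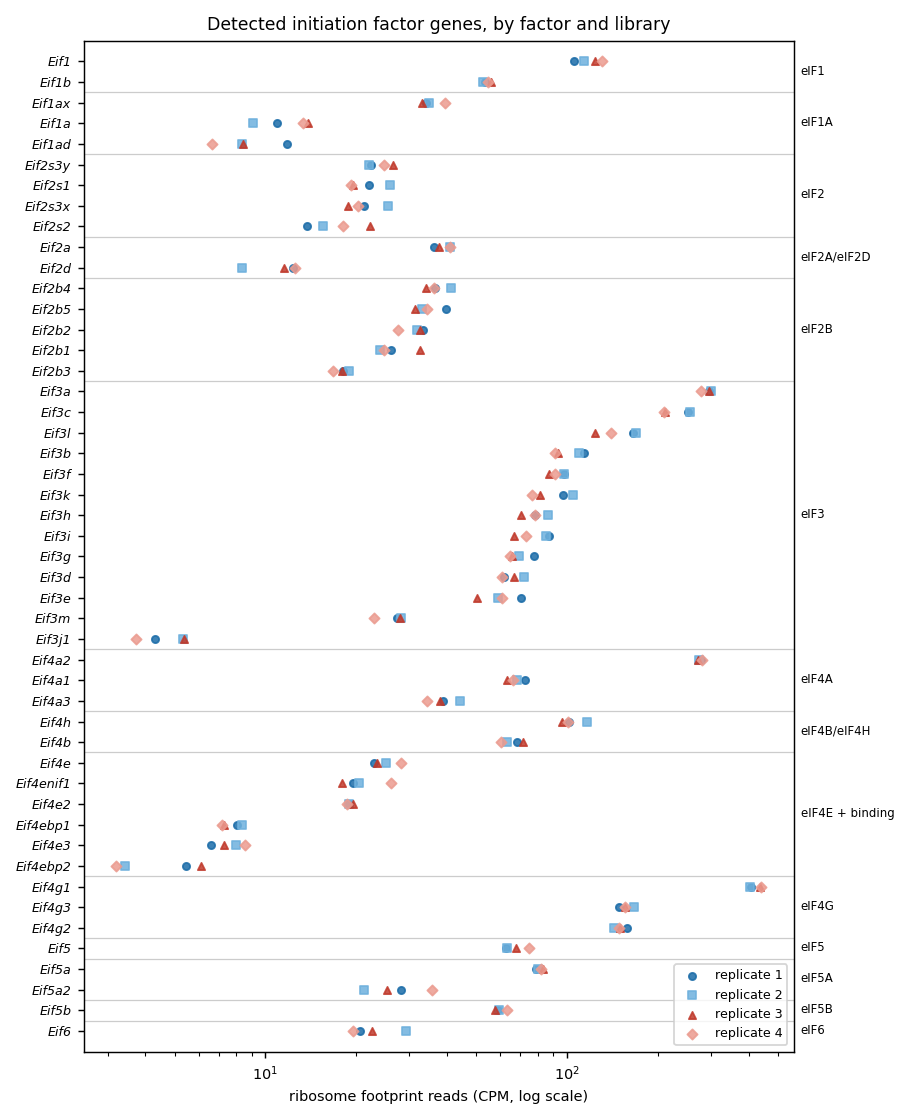
Footprint level of each of the 48 detected initiation factor genes in CPM (x axis, log scale), grouped by factor, with 1 symbol per library. Most genes hold their place across the libraries, and Eif4a2 lies between 271 and 280 CPM while Eif4ebp2 spreads from 3.20 to 6.13 CPM.

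Among the factors that govern start codon choice, eIF1 stood highest. Eif1 had 106, 114, 124 and 130 CPM in replicates 1 to 4. Both libraries of the second pair lay above both of the first, but its reads did not differ between libraries at 0.05 (chi-square test, adjusted p = 0.144). Eif1b had 53.3, 52.8, 55.9 and 54.6 CPM, a range of 1.06-fold. Per kb, Eif1 exceeded Eif1b 2.16-fold in 4 of 4 libraries (log2 difference 1.11 ± 0.11, n = 2; two-sided exact sign-flip permutation test over the libraries, adjusted p = 0.162). With 4 libraries, 2 of the 16 sign assignments are always this extreme, so no contrast of this kind could pass 0.05. With the 2 pairs as units the smallest p would be 0.5. Every contrast that kept its direction by CPM in 4 of 4 libraries has the same adjusted p. Eif1 shares 45.5% of its windows with protein-coding Emd transcripts as annotated, and Emd itself stood at 30.3 to 36.4 CPM. Eif5, whose product opposes eIF1 on the scanning ribosome, had 62.8, 63.4, 67.8 and 74.6 CPM. Per kb Eif5 lay 6.64-fold below Eif1 in 4 of 4 libraries (log2 difference -2.73 ± 0.03).

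eIF1A, which works beside eIF1 in the decoding site, is encoded on the X chromosome by Eif1ax and on chromosome 18 by Eif1a. Eif1ax had 34.1, 34.9, 32.9 and 39.4 CPM and Eif1a 10.9, 9.11, 13.8 and 13.3. The genes did not overlap, and with equal coding lengths of 432 bases Eif1ax exceeded Eif1a 2.87-fold (1.52 ± 0.25 on the log2 scale). Eif1a shares 45.4% of its windows with other protein-coding genes and Eif1ax 1.73%, so this fold also spans a difference in shared sequence. Eif1ad, whose product has an eIF1A-like domain, had 11.8, 8.35, 8.43 and 6.66 CPM, highest in replicate 1.

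The subunits of eIF2, the carrier of the initiator tRNA, lay close together. Eif2s1 (alpha subunit, the site of stress phosphorylation) had 22.1, 25.8, 19.5 and 19.2 CPM. Eif2s2 (beta) had 13.8, 15.6, 22.2 and 18.1 CPM. In the first pair of libraries Eif2s1 lay above Eif2s2, while in replicate 3 the order was turned. Per kb the log2 difference was 0.38 ± 0.51, smaller than its spread between pairs, with Eif2s1 higher in 3 of 4 libraries (exact permutation test on CPM, p = 0.375). The gamma subunit genes had 21.2, 25.4, 18.8 and 20.3 CPM (Eif2s3x) and 22.4, 22.0, 26.4 and 24.8 CPM (Eif2s3y). Their difference was -0.16 ± 0.31 on the log2 scale, with Eif2s3y higher in 3 of 4 libraries (exact permutation test, p = 0.375), a test that could not have passed 0.05 at this number of libraries. Eif2s3x made up 48.7% of the reads of both genes in replicate 1, 53.6% in replicate 2, 41.5% in replicate 3 and 45.0% in replicate 4. The 95% exact binomial intervals were 40.5 to 56.9, 44.5 to 62.6, 32.5 to 51.0 and 37.3 to 52.8, and each includes 50%. These intervals cover counting error only. Eif2s3x shares 95.0% of its windows with other genes and Eif2s3y 0.576%, and the part of lost reads in these shares was not tested. The chromosome Y gene Eif2s3y held reads in every library, as the male label would have it. Xist stood under 1 CPM, but as a noncoding RNA it is a weak check of sex in footprint libraries. Per kb the 4 eIF2 genes spanned 15.1 to 22.9 CPM per kb, a 1.51-fold range.

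eIF2B is the exchange factor that recharges eIF2. Its 5 genes stood between 13.2 (Eif2b3) and 29.7 CPM per kb (Eif2b2). Eif2b4, the delta subunit, had 36.4, 41.4, 34.1 and 36.2 CPM, and Eif2b2, the beta subunit, had 33.3, 31.9, 32.6 and 27.4. Eif2b3, the gamma subunit and partner of epsilon, was lowest on both scales, with 18.1, 19.0, 18.004 and 16.8 CPM and no overlap with the other subunits. Eif2b5, the catalytic epsilon subunit, had 39.6, 33.0, 31.4 and 34.4 CPM. Eif2b1, the alpha subunit, had 26.1, 23.9, 32.6 and 24.8 CPM, high in replicate 3 alone. Per kb Eif2b5 lay 1.83-fold below Eif2b1 (-0.87 ± 0.22, 4 of 4 libraries), although its raw CPM was higher in 3 of 4. The median of eIF2 lay below that of eIF2B by a log2 CPM difference of -0.52 ± 0.02, and of -0.41 ± 0.25 per kb, in 4 of 4 libraries each. No eIF2B gene shared a window with another gene, while Eif2s3x shared 95.0%, Eif2s2 85.4%, Eif2s1 61.9% and Eif2s3y 0.576%. The part of lost reads in the difference of these medians was not tested. Eif2a and Eif2d encode proteins that can deliver tRNA without eIF2, and Eif2d lay 3.14-fold below Eif2a per kb (-1.65 ± 0.14, 4 of 4 libraries). Eif2a had 36.1, 41.0, 37.5 and 40.8 CPM and Eif2d 12.3, 8.35, 11.5 and 12.5, with no overlap.

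**Figure D3:**
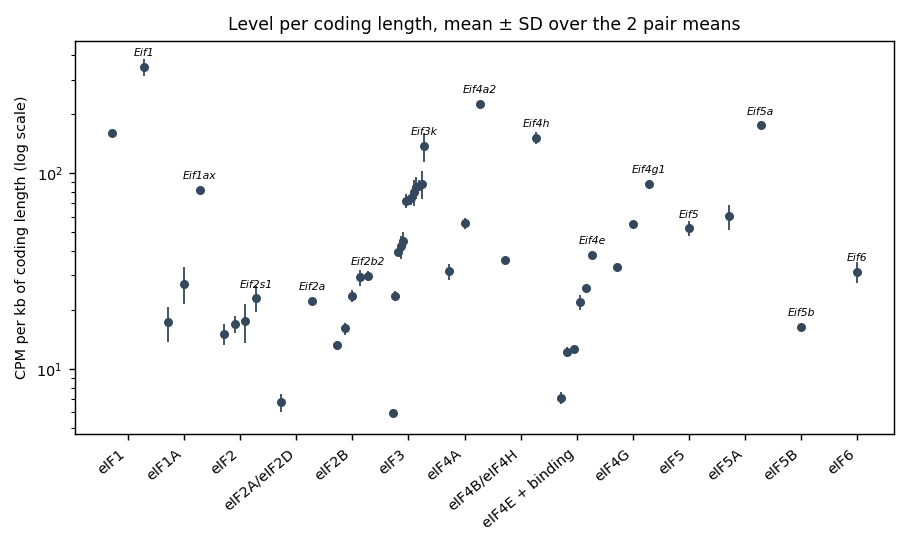
Level per kb of coding length (y axis, CPM per kb, log scale) of the detected members by factor; points are means over the 2 pair means and bars the SD. The 4 eIF2 genes span 15.1 to 22.9 CPM per kb and the eIF3 genes 5.97 to 137.

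eIF3, the many-subunit scaffold that binds the small ribosomal subunit, is encoded here by 14 genes. Of these, 13 were detected, and Eif3j2 had 1 read in replicate 3 and none elsewhere. Excluding Eif3j1, levels ran from 23.7 CPM per kb (Eif3m) to 137 (Eif3k), and 7 genes (Eif3a, Eif3c, Eif3f, Eif3g, Eif3h, Eif3i and Eif3l) lay between 72.4 and 88.3. Eif3a, the largest subunit (chromosome 19, 60761117 to 60790658), had 295, 301, 295 and 278 CPM, the highest CPM of the factor, but per kb it lay 1.89-fold below Eif3k (-0.92 ± 0.21, 4 of 4 libraries). Eif3d, a subunit that can itself bind the cap, and Eif3e, its neighbour in the complex, stood at 39.7 ± 1.35 and 45.0 ± 4.91 CPM per kb. By library, Eif3d had 61.9, 71.8, 66.7 and 60.8 CPM and Eif3e 70.2, 59.2, 50.2 and 60.8, so their values overlapped. Their log2 difference per kb was 0.18 ± 0.11, with Eif3e higher in 3 of 4 libraries, while by CPM Eif3e was higher in 1 of 4, so their order was not settled. Eif3j1, which encodes a loosely attached subunit, had 15, 14, 14 and 14 reads. All of its 756 windows occur in another gene, 754 of them in Eif3j2, and whether reads of this pair were lost in placing was not tested.

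eIF3 exceeded eIF2 in every library. Shared windows are frequent in Eif2s3x (95.0%), Eif2s2 (85.4%) and Eif2s1 (61.9%). Among eIF3 genes they are frequent in Eif3m (64.9%) and Eif3e (50.8%) but absent in Eif3a, Eif3g and Eif3l. The part of lost reads in the order of eIF3 and eIF2 was not tested. The medians differed by 1.85 ± 0.06 in log2 CPM and by 1.99 ± 0.24 per kb (4 of 4 libraries; the exact sign-flip test could again not pass 0.05). Subunits of the cap complex eIF4F lay above eIF3 by 0.96 ± 0.16 in log2 CPM but below it by -0.36 ± 0.003 per kb. This order thus turns with coding length. Per kb the median of the 5 eIF4F genes was the level of Eif4a1, which shares 99.4% of its windows with other genes. Eif4e, which stood below it per kb, shares 80.4%. The part of lost reads in this order was not tested either.

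The summed CPM of the eIF3 genes was 1427 and 1444 in replicates 1 and 2, and 1245 and 1252 in replicates 3 and 4. In a chi-square test of the recovered reads of every gene over the 4 libraries, 976 of 13667 genes were called at an adjusted p under 0.05, a background of 7.14%. Of 45 members tested, 3 were called, which is 6.67% and near that background. All 3 were eIF3 genes. Eif3c, a core subunit, had 251, 256, 211 and 210 CPM in replicates 1 to 4 (chi-square test, adjusted p = 0.000572). Eif3l had 165, 169, 123 and 140 CPM (chi-square test, adjusted p = 0.000236), and Eif3k had 96.6, 104.8, 81.2 and 76.5 CPM (chi-square test, adjusted p = 0.00904). In each, replicates 1 and 2 lay above replicates 3 and 4. The call of Eif3k was lost without replicate 2 or 4 and that of Eif3l without replicate 3, while Eif3c was called throughout. These p-values compare libraries, not conditions.

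In 8 of the 13 detected eIF3 genes both replicates 1 and 2 lay above both replicates 3 and 4, and in 0 was it the reverse. Over the detected protein-coding genes the first order was found in 23.9% and the second in 23.6%. Among the other 35 detected members each order occurred in 8. This grouping of libraries was made after their likeness was seen, and no test was attached to it. The ratio of the first to the second pair was largest for Eif3k (1.28), Eif3l (1.27) and Eif3i (1.23) and smallest for Eif3a (1.04). Markers of several cell types moved in the same libraries. Muscle genes summed to 1697 and 1732 CPM in replicates 1 and 2 against 1184 and 1176 in replicates 3 and 4. Blood genes summed to 424 and 412 against 339 and 358 CPM. The Schwann cell gene Pmp22 went the other way, with 6650 and 6738 against 8246 and 8302 CPM, while Mbp, a myelin gene, had 2250.2 and 2280.3 against 2109.5 and 2097.5. Sensory neuron markers summed to 6367 to 6467 CPM in all 4 libraries. Of these, 3 of 6 were called as varying by the chi-square test, in different directions, beside 7.14% of all genes tested. Nefh, of large neurons, had 2473 and 2462 against 2116 and 2180 CPM, while Scn10a (924 and 929 against 1097 and 1127) and Calca (449 and 437 against 622 and 618), both of nociceptors, were higher in replicates 3 and 4. The part of tissue makeup in the eIF3 values was not tested. In bulk ganglia, fewer cells of a type and less RNA per cell cannot be told apart.

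**Figure D4:**
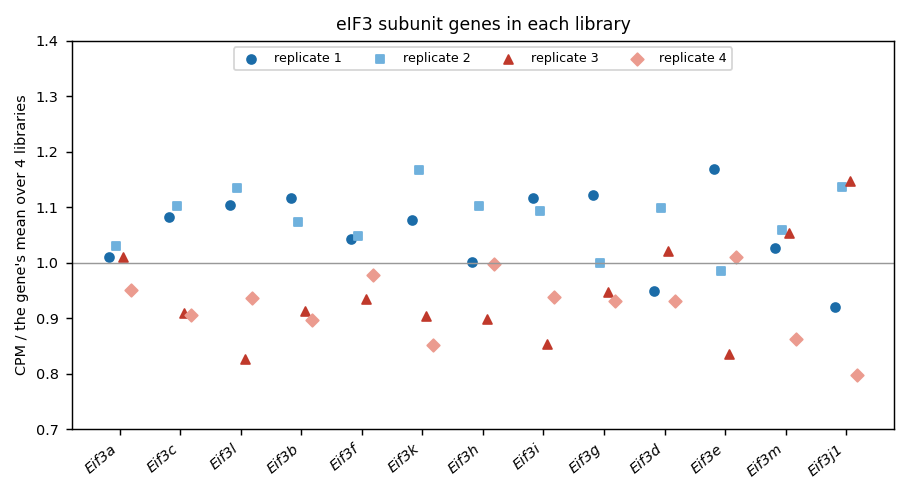
CPM of each detected eIF3 gene divided by its mean over the 4 libraries (y axis), with 1 symbol per library. Replicates 1 and 2 lie above replicates 3 and 4 in 8 of the 13 genes, among them Eif3c, Eif3l and Eif3k.

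The cap complex eIF4F joins the cap-binding protein eIF4E, the helicase eIF4A and the scaffold eIF4G. Eif4g1 (chromosome 16, 20668313 to 20692884) was the highest member by CPM, with 409, 405, 436 and 441. Per kb it exceeded Eif4g3, the second scaffold, 2.65-fold (1.41 ± 0.08), and Eif4g2, 1.59-fold, in 4 of 4 libraries each. Eif4g3 had 149, 166, 156 and 156 CPM and Eif4g2 158, 143, 150 and 149, so neither showed a library apart. Eif4e, the cap-binding protein and the target of MNK kinases, had 22.9, 25.1, 23.4 and 28.2 CPM. Per kb Eif4g1 exceeded Eif4e 2.22-fold, while by CPM the fold was 16.4. Eif4e shares 80.4% of its windows with pseudogenes and Eif4g1 1.66%.

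The helicase genes kept their order under both scales. Eif4a2 had 277, 275, 271 and 280 CPM, a range of 1.03-fold and the narrowest of all detected members. Eif4a1 had 72.5, 68.3, 63.2 and 66.1 CPM, and Eif4a3, part of the exon junction complex rather than of eIF4F, had 38.7, 44.0, 37.9 and 34.4. Per kb Eif4a2 exceeded Eif4a1 4.04-fold (2.01 ± 0.08) and Eif4a1 exceeded Eif4a3 1.75-fold (0.81 ± 0.05), in 4 of 4 libraries. The first fold stands beside the 99.4% and 40.5% of windows that Eif4a1 and Eif4a2 share with other genes. The helicase cofactor gene Eif4h had 102, 116, 96.1 and 100.5 CPM, and Eif4b had 68.2, 63.4, 71.6 and 60.5. Eif4b and Eif4h did not overlap by CPM, and they stood at 36.0 ± 0.0910 and 152 ± 11.0 CPM per kb, with Eif4h 4.19-fold above Eif4b (4 of 4 libraries).

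Small nucleolar RNA (snoRNA) genes lie inside some of these helicase and scaffold genes. The deposited values were whole reads in every library for 48 members and not whole for 4, which were Eif4a1, Eif4a2, Eif4g2 and Eif4ebp3. All 4 overlap another annotated gene on the same strand, as do 13 of the 48, and 3 of the 4 hold a snoRNA gene, as do 3 of the 48 (Eif4g1, Eif3a and Eif5). The snoRNA Gm24029 inside Eif4a1 stood at 233, 225, 350 and 361 CPM, above its host in each library. Gm23262 inside Eif4g2 stood at 118, 126, 325 and 333 CPM, and both were named after their values were seen. Reads of a snoRNA and of the host's message were not separated, so their part in the host's value was not tested.

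Relatives and repressors of eIF4E lay below it per kb, though above the median of detected protein-coding genes for Eif4e2, Eif4e3, Eif4ebp1 and Eif4ebp2 (12.2 to 25.9 against 11.4 CPM per kb). Eif4e2, a weak cap-binding homolog that takes part in repression, had 18.9, 19.0, 19.5 and 18.7 CPM, and Eif4e3 had 6.59, 7.97, 7.28 and 8.53. Per kb Eif4e exceeded Eif4e2 1.46-fold (0.54 ± 0.06) and Eif4e2 exceeded Eif4e3 1.98-fold (0.98 ± 0.07), in 4 of 4 libraries. In single libraries the share of Eif4e in the reads of Eif4e and Eif4e2 ran from 54.5% in replicate 3 (44.8 to 63.9, 95% exact binomial interval) to 60.2% in replicate 4 (52.6 to 67.5), and 3 of the 4 intervals include 50%. The eIF4E-binding repressors, which mTOR phosphorylation releases from the cap, were Eif4ebp1 with 8.03, 8.35, 7.28 and 7.19 CPM and Eif4ebp2 with 5.45, 3.42, 6.13 and 3.20. Per kb Eif4ebp1 exceeded Eif4ebp2 1.65-fold (0.72 ± 0.14), although with 9 to 19 reads of Eif4ebp2 a library its share interval reached below 50% in 2 of 4 libraries. Eif4ebp3 was listed above 0 in replicate 4 alone, and Eif4e1b, an oocyte form, had 1 read in replicate 3. Eif4enif1, which carries eIF4E into the nucleus, had 19.5, 20.5, 18.004 and 26.1 CPM, highest in replicate 4.

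Factors of the last steps differed widely per length. Eif5b, the GTPase that joins the ribosomal subunits, had 59.1, 59.6, 57.8 and 63.4 CPM and lay 3.16-fold below Eif5 per kb (-1.66 ± 0.10, 4 of 4 libraries). Eif5a, the hypusine-carrying factor that helps ribosomes over proline stretches, had 78.9, 80.1, 83.5 and 81.8 CPM. Its paralog Eif5a2 had 28.1, 21.3, 25.3 and 35.7 CPM, lowest in replicate 2 and highest in replicate 4. Per kb Eif5a exceeded Eif5a2 2.90-fold (1.54 ± 0.16), and Eif5a2 shared no window with another gene. Eif5a2 was not called as varying by the chi-square test (adjusted p = 0.0677), but it was once replicate 1 was left out. Eif6, which keeps the subunits apart until the large one is mature, had 20.6, 29.2, 22.6 and 19.5 CPM.

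**Figure D5:**
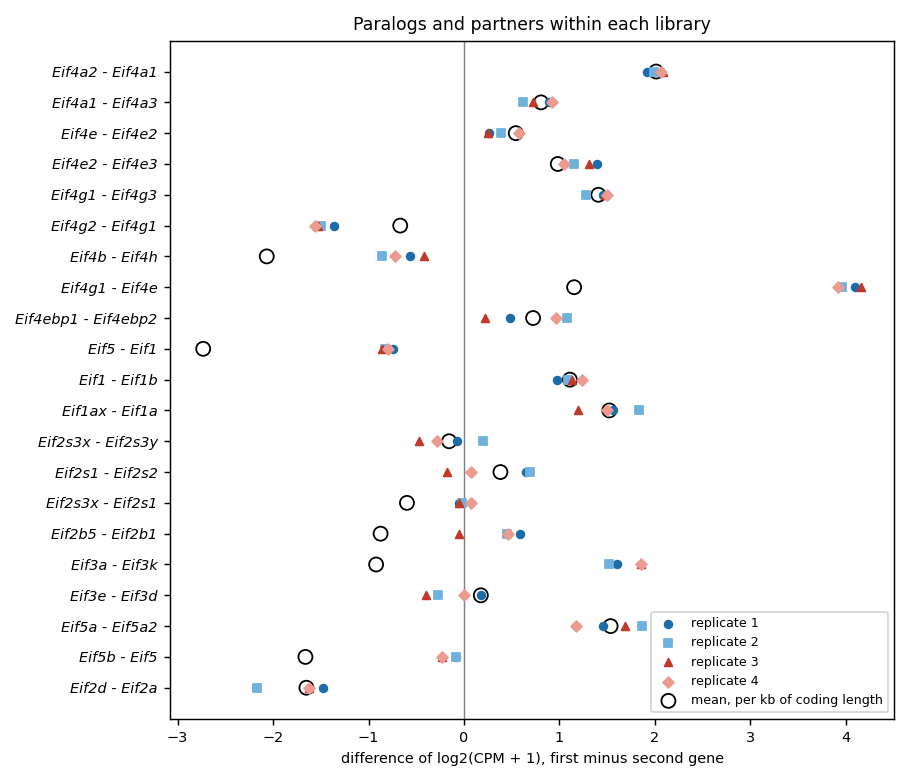
Difference of log2(CPM + 1) between paralogs and partners (x axis, first minus second gene), with 1 symbol per library and an open circle for the mean per kb of coding length. Eif4a2 lies above Eif4a1 on both scales, and Eif3a lies above Eif3k by CPM but below it per kb.

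Other genes of the pathway gave a frame for these levels. The 13 elongation and termination factors were all detected, with a median of 35.9 CPM per kb. The members' median lay below theirs by -0.68 ± 0.04 in log2 CPM, in 4 of 4 libraries, but differed by 0.01 ± 0.02 per kb, with each set higher in 2 libraries. Eef1g, a subunit of the elongation factor exchange complex, was the 1 of 13 called as varying, with 33.8, 34.6, 21.5 and 21.3 CPM (chi-square test, adjusted p = 0.00779). The eIF2alpha kinases, phosphatase subunits and regulators had 10 of 10 listed rows of the table detected, a median of 11.3 CPM per kb and 0 calls, and the members exceeded them by 1.61 ± 0.09 per kb in 4 of 4 libraries. Of 15 cap complex regulators all were detected and 0 called, with Paip2, an inhibitor of the poly(A)-binding protein, at 73.1 ± 6.79 CPM and Ddx3x, a helicase of scanning, at 164 ± 2.50 CPM. Over all genes tested 7.14% were called, so counts of 0 or 1 in lists this short do not set these genes apart.

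Messages whose first bases are a run of pyrimidines are translated under mTOR control, and some initiation factors are known to carry such a start. In the RefSeq promoter table (GRCm38.p6), 40 members had an annotated transcription start, and a C followed by at least 4 pyrimidines stood there in 3, or 7.5%, against 3.01% of 27025 genes. They were Eif3f, Eif2s3x and the noncoding Eif2c5. The first 30 transcribed bases of the coding genes are shown with the run in capitals (plus strand of chromosome 7 for Eif3f, minus strand of chromosome X for Eif2s3x).
Eif3f: CTCTCTTTCTCggcaagatggcttctccgg
Eif2s3x: CTTTTCTCTCCgagcaagatggctgggggt
Eif3f stood at 86.4 ± 5.46 and Eif2s3x at 15.1 ± 1.91 CPM per kb, so the 2 coding genes lay far apart in level. Annotated starts can miss the base used in the ganglion, and a match describes these letters alone.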

How the data were processed

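Footprints of 28 to 34 nt were sequenced in 4 libraries. The build GRCm38 and the tools TopHat2 2.1.1, Cufflinks 2.2.1, Bowtie2 2.2.9 and FastQC 0.11.5 come from the submitters' processing notes. The sources used here give no annotation, counting rule or strand setting. The column headers name TPM, but the deposited values behave as CPM (reads per 1000000): 96.5% to 97.0% of those above 0 were whole multiples of 1 step per library (tolerance 0.02 steps), in short and long genes alike, and each column sums to 1000000. Reads were recovered as value over step. Members and lists were chosen with earlier results of these data known. Named genes are all members, the fixed lists and any gene marked otherwise.

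Detected means averaging 1 CPM or more. The tests were planned for TPM and kept for CPM. Contrasts used log2(CPM + 1) within each library and an exact permutation test that flips signs (two-sided), adjusted by Benjamini-Hochberg over 22 gene or 5 factor contrasts. Per kb differences subtract the log2 ratio of coding lengths (APPRIS principal coding sequence in GENCODE M21, or the longest where that was under 0.5 of it). All reads of a gene were taken as coding. Homogeneity over the 4 libraries was tested by chi-square on genes with whole reads in every library and at least 20 reads, adjusted over all of them. On simulated data over 48431 genes it called 60% of genes changed 1.5-fold in 2 libraries, 100% of those changed 2-fold and 9 of 14143 unchanged genes. The changed genes were drawn from those with at least 100 reads, so these shares do not hold for genes with fewer. The simulated reads held counting error alone, less than the real libraries of different pairs show. Analyses used scipy 1.17.1, pandas 2.3.3, numpy 2.4.6, matplotlib 3.10.9 and Python 3.11.15. The alternatives changed pseudocount, length scaling, filters, pair means, library sizes and libraries used. One tissue marker is not reported here.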

Additional observations from a re-analysis of the deposited data

Results flagged for a closer look

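Eif3m stood at 22.9 CPM in replicate 4, below the other libraries (27.2 to 28.1 CPM). Over the 4 libraries its reads did not pass the chi-square test (p = 0.503). Its gap to the nearest was above the critical share of the range, 0.829, that 4 values allow. Such a gap was looked for in 48 members, and chance alone gives about 1 in 20. The processed pseudogene Eif5al3-ps, left out by the naming rule, stood at 4.60 CPM in replicate 3 and 3.997 CPM in replicate 4 (12 and 15 reads), above the limit that a count of 0 allows, but had 2 and 0 reads in replicates 1 and 2. It holds 40.9% of the coding windows of Eif5a.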

How the results depend on the processing

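Among recomputed values, 311 kept direction, side of the threshold and, for counts, a size within 1.5-fold. These include contrasts averaged over the 4 libraries singly, which equal those from pair means by construction. Taking the highest row of a symbol also left every contrast value unchanged, so neither setting is a check of the contrasts. None of the contrasts could pass a threshold at this number of libraries. Direction turned in 10. Per kb of coding length, with the principal or the longest coding sequence, it turned for Eif2b5 minus Eif2b1 (-0.87), Eif3a minus Eif3k (-0.92), Eif3e minus Eif3d (0.18) and eIF4F minus eIF3 (-0.36). By principal length alone it turned for all members minus elongation factors (0.0116). Eif2s3x minus Eif2s1 turned without replicate 3 (0.0183), from a value of -0.01, and ranged from -0.0463 to 0.0183 over the libraries left out. These turns follow from dividing by length or, for the last, from a difference near 0. Leaving out single replicates moved the count of varying members between 2 and 4 of 45 and left 48 members detected. Over all genes tested, 5.25%, 6.16%, 6.57% and 4.73% were called without replicates 1, 2, 3 and 4. A minimum mean of 0.1 gave 49 members and of 10 gave 43. Scaling by TMM was not run, and median-of-ratios library sizes, chosen after the data were seen, gave 3 varying members. The per kb scale with the longest coding sequence was also added then. No paired analysis was possible because there is 1 group. Eif4ebp2, Eif3j1 and Eif4e3 rest on 9 to 32 reads a library.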

Other observations

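Ribosomal protein genes with symbols of the form Rpl or Rps and a number were chosen after the eIF3 values were seen. Of 77 detected genes, 27 had replicates 1 and 2 both above replicates 3 and 4, and 5 had the reverse. Over the detected protein-coding genes these orders were found in 23.9% and 23.6%. No test was attached to this count. The snoRNA Gm26447 inside Eif4a2 stood at 7.05 and 3.50 CPM in replicates 1 and 2 and at 24.6 and 27.2 CPM in replicates 3 and 4, while its host ranged from 271 to 280 CPM.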
